A study of Gallus gallus with 6 samples.

Results

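The genes described here encode digestive enzymes of the exocrine pancreas: the carboxypeptidases CPA1 and CPB1, the trypsinogen PRSS2, the chymotrypsin-type proteases CTRC and CTRL, and the bile salt-dependent lipase CEL. They were chosen by gene symbol from a list of 9 such enzymes, and 6 of the 9 had a probe set that the platform's gene table gives to that symbol alone. That makes 11 probe sets for 6 genes, of 13009 genes named on the array. CPA5 and PNLIP have no such probe set, and PRSS3 is listed only on a probe set shared with another symbol, so these are not described. The RefSeq table gives PNLIP as an older name of PNLIPRP1, which is described among the other enzymes. The study hybridised 6 arrays, all with RNA from male, 49-day-old Arbor Acres chickens, which are bred for meat. The groups were adipose tissue (1 array), liver (1 array) and mixed tissue (4 arrays, called mix 1 to mix 4). Per the labels' protocols the birds were slaughtered at 7 weeks and 21 tissues were taken, and all birds ate a commercial corn and soybean diet. The labels do not name the tissues in a mix, nor say whether a sample holds 1 bird or several. No array is labelled pancreas.

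Acinar cells of the pancreas make the enzymes that digest protein, fat and starch in the gut. Most are stored in zymogen granules as inactive precursors and are secreted through the pancreatic duct. In the intestine, enteropeptidase on the brush border converts trypsinogen into trypsin, and trypsin then activates the other precursors. In mammals the genes of these enzymes are switched on together by a complex that contains PTF1A and RBPJL.

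Over 38439 probe sets the signal had a median of 27 on liver and 44.8 to 58.1 on the other 5 arrays, and the highest signal of any probe set was 15513 to 18291 per array. Signals are MAS5 intensities on the linear scale, as the authors deposited them. A signal below 44.1, the median of all values, is taken here as low, and low values have no order. Levels were compared between arrays for 1 probe set at a time, never between probe sets. In mixed samples, fewer cells of a type and less RNA per cell cannot be told apart.

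All 6 enzymes had their highest signal on mix 2, their next highest on mix 4, and low signals on liver and mix 1. The 11 probe sets gave 12492 to 18291 on mix 2 and 96.8 to 1634 on mix 4. They gave 1.6 to 121 on mix 3, 1.5 to 63.4 on adipose, 1.8 to 33.4 on mix 1 and 1.3 to 26.8 on liver. The ranges of mix 2 and mix 4 lie apart from each other and from those of adipose, liver and mix 1. Those of mix 3 and mix 4 overlap only between different probe sets, and mix 4 was above mix 3 for each of the 11. Mix 2 was the brightest array for 11 of 11 probe sets, beside 6.75% of all 25958 probe sets tested. All 11 passed the filter on low values, and they did so through mix 2 and mix 4, so these counts describe the choice of genes rather than test it.

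**Figure D1:**
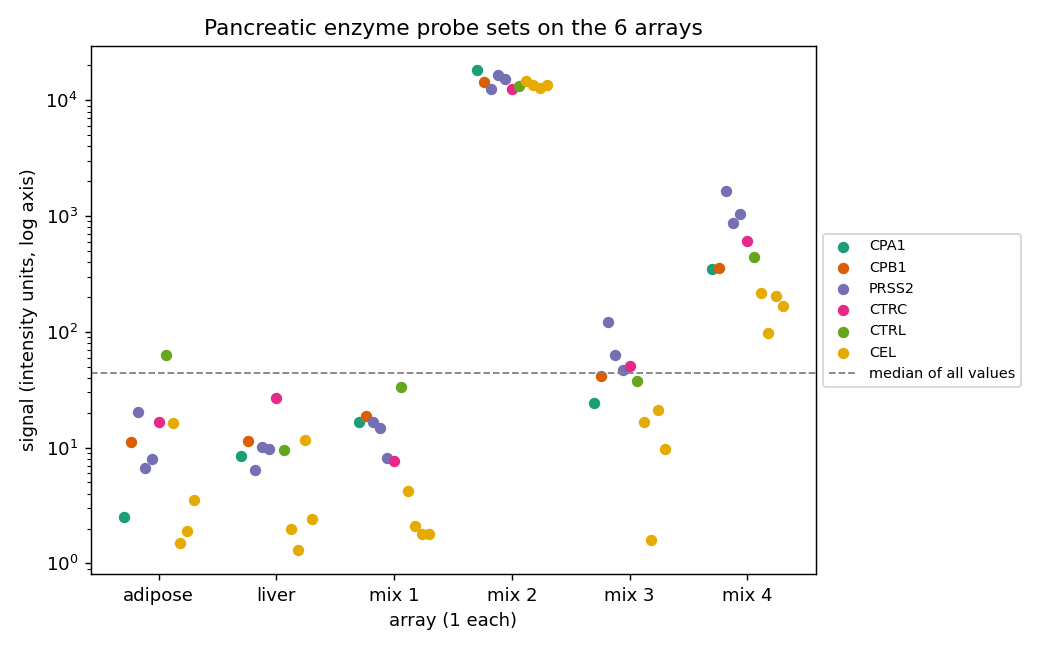
Signal of the 11 pancreatic enzyme probe sets (log axis, intensity units) on each of the 6 arrays, a point per probe set and array, coloured by gene, with the median of all values (44.1) as a dashed line. Every probe set lies between 12492 and 18291 on mix 2 and between 96.8 and 1634 on mix 4, while no point lies above 63.4 on adipose, liver or mix 1.

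Carboxypeptidases trim amino acids from the carboxyl end of peptides. CPA1, which removes aromatic and branched residues, gave a signal of 18291 on mix 2, 347 on mix 4, 24.5 on mix 3, 16.6 on mix 1, 8.5 on liver and 2.5 on adipose. Mix 2 thus stood 52.7-fold above mix 4, and the other 4 arrays were low. CPB1, which removes lysine and arginine, gave 14412 on mix 2, 355 on mix 4, 41.5 on mix 3, 18.9 on mix 1, 11.4 on liver and 11.1 on adipose. Mix 2 stood 40.6-fold above mix 4, and the other 4 arrays were low here too. CPA1 lies next to CPA5 among the protein-coding genes of the reference assembly.

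Trypsin cleaves after lysine and arginine and activates the other precursors. PRSS2 was measured by 3 probe sets. The first, of the kind that can match transcripts of more than 1 gene, gave 12492 on mix 2, 1634 on mix 4, 121 on mix 3, 20.3 on adipose, 16.7 on mix 1 and 6.4 on liver. The second gave 16646 on mix 2, 877 on mix 4, 63.2 on mix 3, 14.8 on mix 1, 10.2 on liver and 6.7 on adipose. All 3 showed the same order of the top 3 arrays. The third gave 15328 on mix 2, 1048.5 on mix 4, 47.3 on mix 3, 9.8 on liver, 8.1 on mix 1 and 8.0 on adipose. Mix 2 stood 7.65-fold above mix 4 by the first, 19.0-fold by the second and 14.6-fold by the third, and mix 3 was above 44.1 by all 3. PRSS3 lies next to PRSS2 in the reference assembly, and how far the probe sets tell the pair apart was not tested.

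Chymotrypsins cleave after large hydrophobic residues. CTRC, which in humans also governs the activation and breakdown of trypsinogen, gave 12557 on mix 2, 606 on mix 4, 50.9 on mix 3, 26.8 on liver, 16.7 on adipose and 7.7 on mix 1. CTRL, a related protease, gave 13165 on mix 2, 442 on mix 4, 63.4 on adipose, 37.3 on mix 3, 33.4 on mix 1 and 9.5 on liver. Mix 2 stood 20.7-fold above mix 4 for CTRC and 29.8-fold for CTRL. CTRL was the exception among the 11 probe sets on adipose, where the other 10 lay below 44.1. On liver and on mix 1 all 11 lay below it, and on mix 3 it was passed by 4 probe sets, those of PRSS2 and CTRC. Signals below 44.1 are common over all probe sets, whose medians were 49.4 on mix 1, 48 on adipose and 44.8 on mix 3. On liver, with a median of 27, most probe sets lay below it, so a low signal there does not set the enzymes apart.

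CEL splits triglycerides, cholesterol esters and vitamin esters in the presence of bile salts. It was measured by 4 probe sets, 2 of them of the kind that may bind closely similar sequences. The one with the highest mean log2 level gave 14719 on mix 2, 218.5 on mix 4, 16.8 on mix 3, 16.2 on adipose, 4.2 on mix 1 and 2.0 on liver. By the other 3, mix 2 gave 12654 to 13637 and mix 4 gave 96.8, 203 and 167. Adipose, liver, mix 1 and mix 3 did not exceed 21.3 by any of the 4. Mix 2 stood 62.4-fold to 140-fold above mix 4, in the same direction by all 4 probe sets.

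The signal on mix 4 was a small share of that on mix 2. It came to 1.90% for CPA1, 2.46% for CPB1, 3.36% for CTRL and 4.83% for CTRC. The 3 probe sets of PRSS2 gave 5.27%, 6.84% and 13.1%, and the 4 of CEL gave 0.71% to 1.60%. The shares of different genes were not ranked. With 1 array of each mix there is no spread to test these shares against. The signals on mix 2 are near the highest that any probe set reached on these arrays. The highest of all, 18291, is that of CPA1 itself on mix 2. Whether an upper limit bounds the mix 2 signals was not tested. A bound would make these shares too high, and with them the median share that is applied to other genes below.

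On the scale of log2(signal + 13), used for all differences below, mix 4 exceeded the highest of adipose, liver, mix 1 and mix 3 by 2.57 to 4.14, so by at least 4-fold for 11 of 11 probe sets. For comparison, 80 other probe sets had a signal over 1000 on mix 2 and were at least 4-fold brighter there than on adipose, liver, mix 1 and mix 3. Mix 4 was at least 4-fold above those 4 arrays in 48.8% of them. Their signal on mix 4 had a median of 3.10% of that on mix 2, with quartiles at 1.18% and 88.0%. A raised mix 4 was therefore common among these 80 probe sets. They were chosen after the values were seen, and they include other pancreatic genes, whose part in the 48.8% was not counted.

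**Figure D2:**
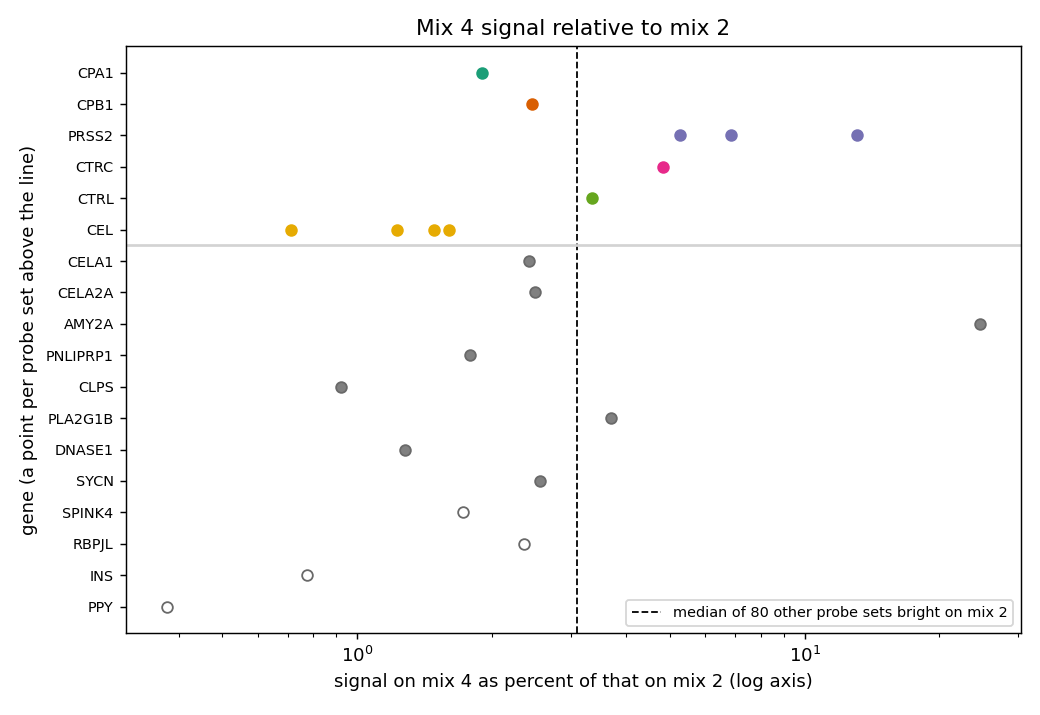
Signal on mix 4 as percent of that on mix 2 (log axis), a coloured point per probe set for the 6 enzymes and a grey point for the probe set with the highest mean log2 level of each of 12 other pancreatic genes. Open points mark genes whose mix 4 signal is not above adipose, liver, mix 1 and mix 3. The probe sets of CEL lie at 0.71% to 1.60%, those of PRSS2 at 5.27% to 13.1%, and the dashed line marks 3.10%, the median of 80 other probe sets.

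Most other enzymes of pancreatic juice found on the array were also highest on mix 2. Of 25 listed, 9 had a probe set with that symbol alone; 8 of the 9 were brightest on mix 2, and 7 of these were at least 4-fold above each other array, beside 0.547% of all probe sets tested. Mix 4 came next, with a signal above 44.1, in 6 of these 7 (CELA1, CELA2A, PLA2G1B, PNLIPRP1, CLPS and AMY2A). The elastases CELA1 and CELA2A gave 13164 and 14693 on mix 2 and 319 and 367 on mix 4. PLA2G1B, a phospholipase, gave 14839 and 549. PNLIPRP1, a relative of pancreatic lipase, gave 14062 and 252, and CLPS, the cofactor that anchors pancreatic lipase to fat droplets, gave 8466 and 78.1. On adipose, liver, mix 1 and mix 3 these 5 genes stayed at or below 48.5. The nuclease DNASE1, also known from kidney, was the exception, with 2434 on mix 2 by 1 probe set and 3925 by the other. Its signals on the other 5 arrays were low by both, with 31.2 and 5.6 on mix 4 and 0.6 and 19.5 on mix 3. At the enzymes' median share of 2.91% the first probe set would give 70.8 on mix 4. Its share of 1.28% is within the 0.71% to 1.60% of CEL, so by this probe set a mix 4 share like that of CEL could not be seen. By the other probe set, with 3925 on mix 2 and 5.6 on mix 4, the share was 0.14%. That is below the shares of all the enzyme probe sets, though it comes from a low mix 4 signal.

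Starch-digesting amylase depended on the probe set. By 2 of its 5 probe sets AMY2A gave 12916 and 12769 on mix 2 and 1232 and 3144 on mix 4. Another gave 255.5 on mix 2 and at most 20.6 elsewhere, and the remaining 2 gave at most 48.8 on any array. The share of mix 4 was 24.6% by the probe set with the highest mean log2 level, which also gave 108 to 217 on the other 4 arrays. AMY1A, the second amylase gene on the array, was measured by 3 probe sets. One gave 1964 on mix 2, with 814 on liver next, 558.5 on mix 4 and 337 to 552 on the rest, and another gave 738 on liver and 251 to 512 elsewhere. The third gave 224.7 on mix 2, with 147.6 on adipose next and 57 to 124.5 on the rest. RNASE6, a ribonuclease known from immune cells in mammals, had its highest signal on adipose (2501) and 527 to 2107 on the others.

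Beyond the enzymes, proteins of acinar cells divided. SYCN, a zymogen granule protein, gave 16445 on mix 2, 422.5 on mix 4 and 10.5 to 49.1 on the others, so the same 2 arrays led as for the enzymes. RBPJL, the partner of PTF1A, gave 1938.5 on mix 2, 52.5 on mix 3, 45.7 on mix 4 and 11.9 to 36.8 on the others. At the enzymes' median share of 2.91% its mix 4 signal would be 56.4, too near these values to be told from them. SPINK4, a Kazal-type protease inhibitor, gave 4620 on mix 2, 369 on liver, 79.8 on mix 4 and 40.4 to 62.6 on the rest. Its mix 4 signal was 1.73% of that on mix 2, but lay below liver and near the 62.6 of mix 3. A mix 4 share could therefore not be read for SPINK4. PDIA2, a disulfide isomerase abundant in the human pancreas, gave 2205 on mix 2, 874 on mix 1 and at most 34.8 elsewhere. GATM, which makes the creatine precursor, was brightest on liver (2557), then on mix 2 (1744) and mix 4 (285). Of 11 acinar secretory genes found, 9 passed the filter on low values, and of these 4 were brightest on mix 2 and 2 were at least 4-fold above all others. Of 6 transcription factors found, all past the filter, these counts were 2 and 1. Over all probe sets tested the shares were 6.75% and 0.547%. XBP1, which expands the secretory apparatus of many cells, was highest on liver (5885) and gave 1508 to 2022 elsewhere.

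The genes that control secretion and activation were faint or lay on other arrays. TMPRSS15, which encodes enteropeptidase, gave 309 on mix 1 and 1.8 to 38.2 on the other arrays, so it was brightest where the enzymes were low. Mix 1 was also the brightest array for 17 of 19 intestine genes and 7 of 8 glandular stomach genes, beside 19% of all probe sets tested. Of 8 genes of the control list found 7 passed the filter. Of these 1 was brightest on mix 2 and 0 were at least 4-fold above the others, beside 6.75% and 0.547% of all probe sets tested. The 1 gene was CASR, with 115.5 on mix 2, 86.4 on mix 4 and 20.2 to 63.5 on the others. CCKAR, the cholecystokinin receptor, reached 67.1 at most, on mix 2 by 1 of its 3 probe sets. By the one with the highest mean log2 level it gave 60.4 on mix 1 and 56.7 on mix 2. The muscarinic receptor CHRM3 gave at most 33.5 on any array.

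Among islet hormone genes, INS and PPY were highest on mix 2, while IAPP was not and GCG depended on the probe set. INS, the insulin gene, gave 5770 on mix 2, 87.1 on liver, 51.9 on mix 3, 44.7 on mix 4, 33.5 on adipose and 32.8 on mix 1. Its mix 4 signal was 0.77% of that on mix 2, and lay among those of the other arrays. At the enzymes' median share it would be 168, but 0.77% is within the 0.71% to 1.60% of CEL, so a mix 4 share like that of CEL could not be seen. PPY, pancreatic polypeptide, gave 770 on mix 2, 2.9 on mix 4 and 5.1 to 51.6 elsewhere. At the median share its mix 4 signal would be 22.4, below 44.1, so a second step could not be seen either. IAPP, which encodes amylin, gave 108 on mix 1 and at most 23.4 elsewhere, with 3.4 on mix 2. GCG, which encodes glucagon and gut hormones, gave 1316 on mix 2 and 502 on mix 1 by 1 probe set, but 356 and 852 by the other. Of 18 islet genes found 16 passed the filter. Of these 3 were brightest on mix 2, beside 6.75% of all probe sets tested, and 2 (INS and PPY) were at least 4-fold above all others, beside 0.547%. Genes that neurons and other endocrine cells share with islets were brightest elsewhere: CHGA gave 3206 on mix 1 and 1920 on mix 4 against 93.7 on mix 2, and PCSK2 gave 1386 on mix 4. Of 11 genes of duct epithelium 1 was brightest on mix 2, which is near the 6.75% of all probe sets tested. The channel CFTR gave 63.0 on mix 2 against 122.5 on mix 1 and 117 on adipose. The labels do not say whether mix 2 or mix 4 holds pancreas, and whether these mixes differ in the cells they hold was not tested.

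**Figure D3:**
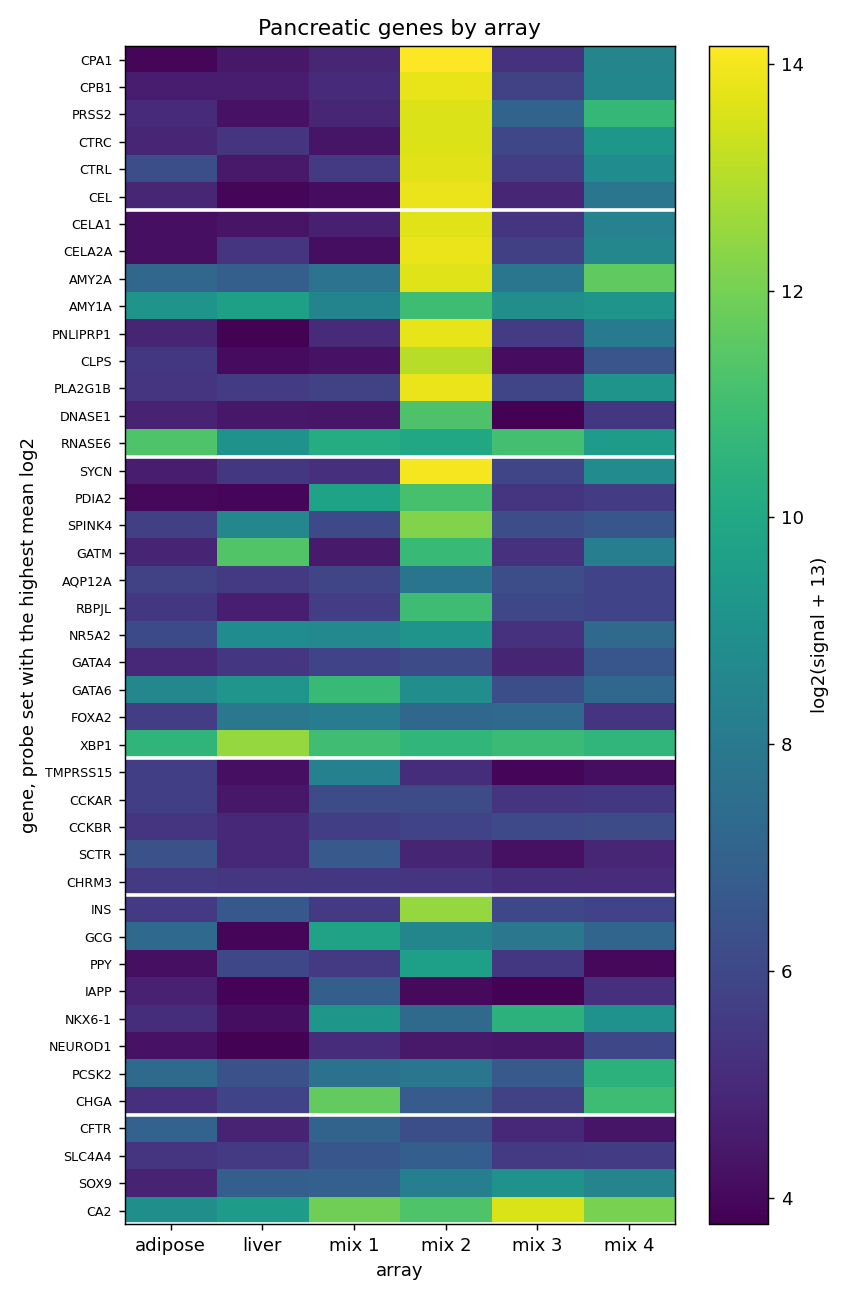
Level of pancreatic genes on the 6 arrays as log2(signal + 13), with white lines between the enzymes, other enzymes, acinar genes, control genes, islet genes and duct genes. The 6 enzymes lie between 13.61 and 14.16 on mix 2 and between 7.85 and 10.69 on mix 4, while INS is highest on mix 2.

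Those relatives of the enzymes from other tissues that passed the filter were brightest on other arrays. Of 24 such carboxypeptidases, serine proteases and lipases found, 22 passed. Of these 0 were brightest on mix 2 and 0 were at least 4-fold above all others, beside 6.75% and 0.547% of all probe sets tested. Both counts are near those shares, so they do not set these genes apart. CPA6, left out by the filter, was brightest on mix 2 with a low 26.3. CPB2, a plasma carboxypeptidase of the liver, gave 3546 on liver and at most 42.2 elsewhere, so it was bright where CPB1 was low. CPE, which processes peptide hormones, gave 725 on mix 4 and 16.9 on mix 2. LPL, which frees fatty acids from circulating lipoproteins, gave 10403 on adipose and 277 on mix 2. GZMA, a protease of cytotoxic lymphocytes, gave 6342 on mix 1 and 537 on mix 2. Of 10 kidney genes, 8 were brightest on mix 2 as well and 5 were at least 4-fold above the others there, beside 6.75% and 0.547% of all probe sets tested. Some of the 8 were faint, with 103 on mix 2 for AQP2 and 106 for KL. UMOD was brightest on mix 4 (60.6, with 7.2 on mix 2) and CALB1 on mix 1 (4056.5, with 592 on mix 2). SLC34A1, a phosphate carrier of the renal tubule, gave 6380 on mix 2, 204 on mix 4 and 65.4 to 212 on the others. By other probe sets it gave 5579 and 315 on mix 2, with 34.8 and 39.9 on mix 4. The rest of its probe sets gave at most 26 on any array. Of 15 lymphoid genes 11 passed the filter. Of these 2 were brightest on mix 2 and 0 at least 4-fold above the others, beside the same 6.75% and 0.547%.

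The genes most like the enzymes across the arrays were mostly other pancreatic genes. Likeness was Pearson's r over the 6 arrays with the mean log2 profile of the 6 enzymes, among 3072 other genes over 1000 on at least 1 array. It was 0.998 for SIIL (15495 on mix 2 and 495 on mix 4) and for CELA1, 0.996 for PLA2G1B, 0.994 for PNLIPRP1, 0.992 for SYCN and 0.987 for CELA2A. The list goes on with MYL2 (0.978), AMY2A (0.976), CSRP3 (0.971) and CLPS (0.960). The enzymes themselves had 0.975 (PRSS2) to 0.998 (CPB1) with their own mean. Of the 10 genes, 7 belong to the pancreatic lists. MYL2 and CSRP3 encode proteins of heart and slow skeletal muscle, and gave 4933 and 1655 on mix 2 with 126 and 392 on mix 4. A pattern over 6 arrays therefore does not single out 1 organ, and 26 genes reached an r of 0.9. The 6 arrays are the same for every gene, so r is a description.

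**Figure D4:**
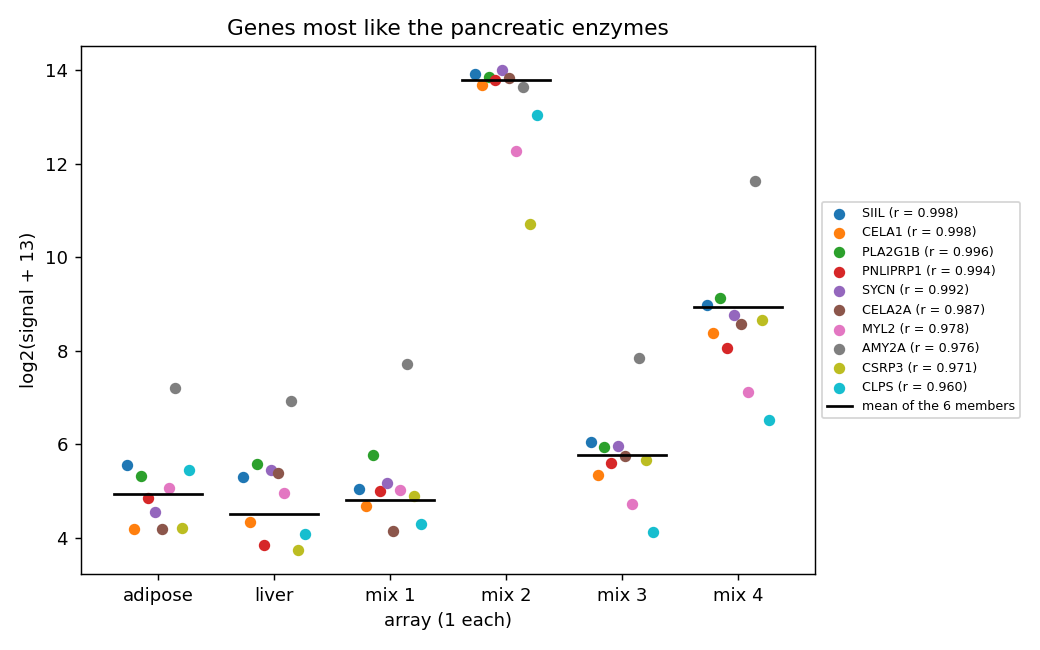
Level of the 10 genes most like the enzymes as log2(signal + 13) on the 6 arrays, a point per gene and array, with the mean of the 6 enzymes as black bars. The bars stand at 13.79 on mix 2, 8.94 on mix 4, 5.77 on mix 3 and 4.50 to 4.94 on the other arrays.

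The study set out to find genes prominent in adipose tissue and in liver. Each of these arrays was therefore compared with the 4 mixes, and no enzyme passed the test in either. The difference of adipose from the mean of the mixes was -4.24 (SE 3.54) for CPA1, with -4.01 for PRSS2 and -3.68 for CPB1. It was -3.42 for CTRC, -2.81 for CEL and -2.17 for CTRL. The median of the 6 genes was -3.55, beside 0.08 over all probe sets tested. By limma the adjusted p lay between 0.930 and 0.958, and 0% of all probe sets passed (0 of 25958, with 1904 at an unadjusted p under 0.05). Without mix 1 the median was -4.76.

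Liver differed from the mean of the mixes by -4.79 (SE 3.18) for PRSS2, -3.93 for CTRL and -3.77 for CPA1 and CEL. CPB1 stood at -3.67 and CTRC at -3.001. The median was -3.77, beside -0.75 over all probe sets, and the adjusted p by limma lay between 0.399 and 0.591. Of all probe sets 0.0501% (13) passed, with 5165 at an unadjusted p under 0.05, and none of the 6 enzymes was among them. All of these 13 were higher on liver, and 0 of them passed when any 1 mix was left out. By the plain order of the deposited values 2 of the 6 lay below all 4 mixes on adipose, beside 15.7% of all probe sets, and 5 on liver, beside 60.5%. These counts rest on the order of low values: with values below 44.1 set to 44.1 both were 0, and nothing is read from them.

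The 9 genes found of the 25 listed as other pancreatic enzymes had medians of -3.01 on adipose and -2.92 on liver, and 0 of them passed limma in either comparison (adjusted p of CELA1, for example, 0.934 and 0.520). None of the tested genes of the other lists passed on either array.

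These tests rest on the spread among mixes that hold different tissues, which for the enzymes had an SD of 3.82 to 4.64 against a median of 0.48 over all probe sets. Mix 2 carried much of both medians: without it they were -1.75 on adipose and -1.80 on liver. The 6 genes were still lower than the mean of the other mixes on both arrays. Those mixes include mix 4, the next highest array for all 11 probe sets, so this sign is no separate support. For CTRL, adipose (63.4) was above mix 1 (33.4) and mix 3 (37.3), and its difference without mix 2 was -0.42. Between adipose and liver no difference could be read, since 10 of the 11 probe sets were below 44.1 on both. The exception was CTRL, with 63.4 on adipose and 9.5 on liver.

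**Figure D5:**
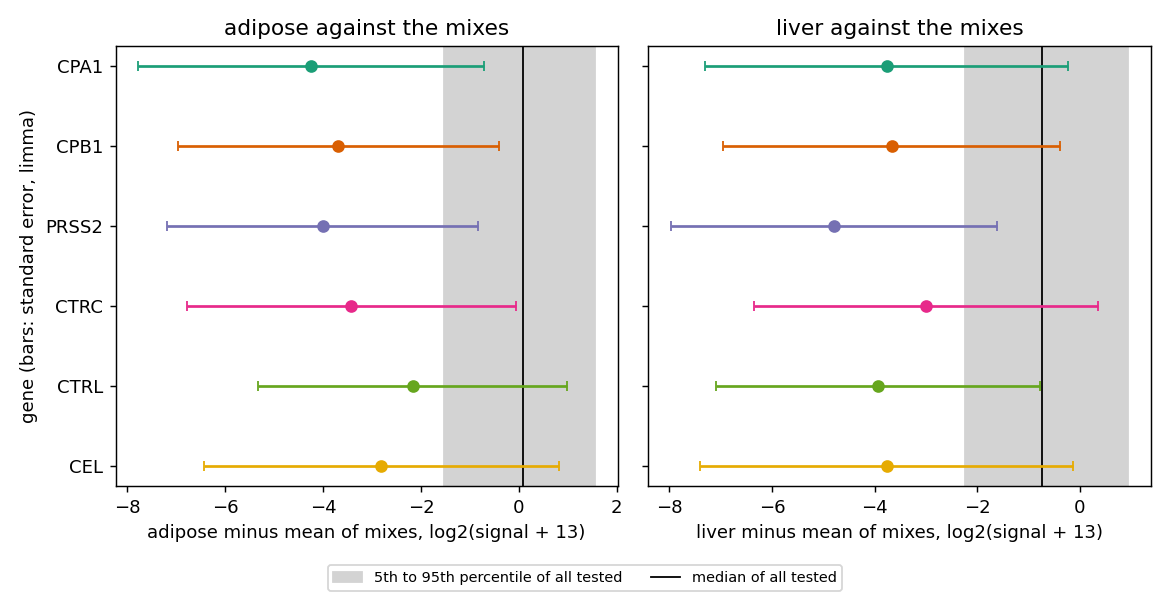
Difference of adipose (left) and liver (right) from the mean of the 4 mixes on the log2(signal + 13) scale for the probe set with the highest mean log2 level of each enzyme, with limma's standard error as bars. The grey band spans the 5th to 95th percentile of all probe sets tested, and the enzymes lie between -4.24 and -2.17 on adipose and between -4.79 and -3.001 on liver.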

How the data were processed

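Total RNA from 6 samples (adipose tissue, liver and mixes 1 to 4) had been hybridised to Affymetrix chicken arrays, 1 array per sample. Per the submitters' processing notes the authors ran MAS5. What they deposited is 1 linear intensity per probe set and array. Its version, scaling target and detection calls are not stated in the labels. Groups were taken from the sample titles, since the free-text description names adipose tissue for all 6 samples.

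Gene names come from the platform's annotation table. Of 38439 probe sets other than the 96 Affymetrix controls, 27168 had 1 symbol, 177 had several and 11094 had none. Only those with 1 symbol were named, which covers 13009 genes. All 6 genes described were matched by gene number to the RefSeq table of the reference assembly. Deposited scaling was kept. Values were turned into log2(signal + 13), with 13 taken from the 25th percentile over all arrays. The filter kept the 25958 probe sets with a value over 44.1, the median of all values, on 1 or more arrays. Adipose and liver were each compared with the mixes by limma 3.58.1 in R 4.3.3 (eBayes with a trend, two-sided, Benjamini-Hochberg over all 25958). Only the 4 mixes give a residual spread (3 degrees of freedom). Adipose and liver, with 1 array each, are taken to have that same variance. The script was tested on data simulated with the same spread for every probe set, so not with the wide spread of the enzymes. An exact permutation of 1 array against 4 cannot go below 0.4 two-sided, so none was used. All other comparisons are by size, without a test. Where a gene has more than 1 probe set, counts use the one with the highest mean of log2(signal + 13) over the 6 arrays, and the text covers all of them for the enzymes.

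The enzymes and the gene lists were chosen with earlier results of these data known. Named genes are the enzymes, members of 11 gene lists (other pancreatic enzymes, acinar secretory proteins, acinar transcription factors, control of secretion and activation, islet, duct, relatives from other tissues, intestine, glandular stomach, lymphoid and kidney), and the 10 genes with the highest Pearson r to the enzymes' mean profile among genes over 1000 on at least 1 array. Alternatives covered the pseudocount, a floor, the filter, 3 other scalings, each mix left out and the mean of a gene's probe sets. The number of arrays limits the precision.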

Additional observations from a re-analysis of the deposited data

Results flagged for a closer look

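Over the 4 mixes, 6 of 69 pancreatic values (the 11 enzyme probe sets and the tested genes of 6 pancreatic lists) had 1 mix far from the other 3 by Dixon's ratio, the gap to the nearest mix over the whole range on the log2(signal + 13) scale. The ratio was 0.928 for INS, 0.925 for RBPJL, 0.924 for SPINK4 and 0.8294 for AQP12A, a water channel, each with mix 2 as the high array. It was 0.920 for REG4, a secreted lectin, with mix 1 high (1378 against 21.1 to 32.8), and 0.835 for SPP1, osteopontin, with mix 1 low (77.4 against 5325 to 11936). Chance gives about 1 in 20, and 7.02% of all tested probe sets passed. None of the 11 enzyme probe sets did, with ratios of 0.335 to 0.705, since mix 4 stands between mix 2 and the rest.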

How the results depend on the processing

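Under every scaling, pseudocount and probe set rule tried, 6 of 6 enzymes were brightest on mix 2, with a median margin over the next array of 4.97 to 5.46 (log2). All differences of the 6 genes from the mixes stayed below 0 in the 120 alternative values (-6.18 to -0.42), and none passed (adjusted p 0.304 to 0.999 by limma). Every alternative kept mix 2 or mix 4, where the enzymes are high, so the shared sign is no separate support. With a floor at 44.1, 671 probe sets passed on adipose and 204 on liver, and 0 enzymes lay below all mixes on either, since values at the floor are tied. Without the floor the count was 2 on adipose and 5 on liver, from the order of low values, so nothing is read from it. On liver 84 passed with the median as pseudocount, 27 without the filter, 43 with quantile and 76 with trimmed-mean scaling, and 0 without any 1 mix. On adipose 0 passed without any 1 mix. Leaving out 1 mix gave 2 to 5 enzymes below the remaining mixes on adipose (5 without mix 1) and 5 to 6 on liver. The causes of these shifts in counts were not tested. The median share of mix 4 was 2.91%, 2.61% after the highest of adipose, liver and mix 1 was subtracted (chosen after seeing the data) and 2.22% to 2.79% with other scalings. Of the 10 most alike genes 9 or 10 remained. The adipose minus liver median of 0.38, also from low values, fell to 0.00 with the floor and 0.05 with quantile scaling. Low signals on adipose, liver and mix 1 limit any difference among them. No paired analysis was possible because adipose and liver have 1 array each.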
